A study of Mus musculus with 209 samples.

Results

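The genes described here are the expressed members of the mouse Zfp series of zinc finger genes. A symbol was taken if it read Zfp followed by a number and at most 1 letter, apart from Zfp57, Zfp445, Zfp352 and Zfp42. It also had to reach 10 CPM (counts scaled to the library total) or more in the pooled libraries of at least 1 of 4 groups of oocytes and 2-cell samples. Of 380 such symbols 214 passed, among 8782 of 24450 genes at the same level. The genes were thus selected on their measured level in these libraries, and that level is described without a test. Just inside the limit lay Zfp574 and Zfp119a, with a highest pooled level of 10.1 CPM each, and Zfp850, with 10.3 CPM. Just outside it lay Zfp975 (9.59 CPM), Zfp61 (9.63 CPM) and Zfp26 (9.78 CPM).

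RNA was counted in 33 single oocytes arrested at metaphase of the second meiotic division (MII) and in 17 single 2-cell samples. Both came from superovulated C57BL/6 females 6 to 8 weeks old, taken 14 to 15 h and 42 to 43 h after hCG injection. There were 14 wild-type (WT) oocytes, 19 oocytes of females labelled N14 maternal KO, read here as a knockout of Nlrp14, 8 WT 2-cell samples and 9 2-cell samples from KO females. Sires of the series were C57BL/6 or PWK, and the labels of these samples do not say which. Epiblast, the embryonic layer that forms the body, was counted in 2 samples from embryos in culture (IVC) and 2 from embryos at E6.5, both from C57BL/6 x C57BL/6 matings. The E6.5 samples carry the tag ND, whose meaning is not given.

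A C2H2 zinc finger is a short fold held by a zinc ion, and a row of such fingers reads a stretch of DNA base by base. Many Zfp proteins also carry a KRAB domain. This domain recruits the corepressor Trim28, which brings the histone methyltransferase Setdb1 and heterochromatin protein, so that the bound locus is silenced. Many KRAB proteins bind transposable elements, and their genes lie in tandem clusters that grew by duplication. In the early embryo the maternal transcripts left in the egg are degraded while the embryo's own genome begins to be transcribed, in the mouse mainly at the 2-cell stage. Other Zfp symbols name proteins with different work: RNA binding, ribosome rescue, spindle assembly, or transcription without a KRAB domain.

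Of the 214 genes 183 had a RefSeq promoter window, 250 bases before to 50 after a transcript start, in build GRCm38.p6. The windows shown belong to genes on which the results turn: Zfp871, Zfp54 and Zfp280c, scarce in WT oocytes and present at the 2-cell stage, Zfp955b, abundant in oocytes and lower afterwards, and Zfp979, among the most abundant in every group. They lie at chr17:32788238-32788537 on the minus strand (Zfp871), chr17:21422977-21423276 on the plus strand (Zfp54), chrX:48594570-48594869 on the minus strand (Zfp280c), chr17:33289294-33289593 on the plus strand (Zfp955b) and chr4:147642459-147642758 on the minus strand (Zfp979). Where a gene had several windows the first listed is given. Capitals mark matches on either strand to CCAAT (the CCAAT box), GGGCGG (the GC box), TATAAA (the TATA box), GGATTA (a core read by OTX and OBOX homeodomain proteins), CACGTG (the E-box), AAGATGGC (a YY1 core) and ACTACAA (a ZFP143 core).
Zfp871: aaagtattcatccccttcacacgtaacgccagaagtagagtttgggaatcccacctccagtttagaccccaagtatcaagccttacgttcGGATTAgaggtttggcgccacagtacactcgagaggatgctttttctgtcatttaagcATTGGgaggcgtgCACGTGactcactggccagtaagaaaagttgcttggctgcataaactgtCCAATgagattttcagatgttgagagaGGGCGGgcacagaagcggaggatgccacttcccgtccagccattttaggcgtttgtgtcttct
Zfp54: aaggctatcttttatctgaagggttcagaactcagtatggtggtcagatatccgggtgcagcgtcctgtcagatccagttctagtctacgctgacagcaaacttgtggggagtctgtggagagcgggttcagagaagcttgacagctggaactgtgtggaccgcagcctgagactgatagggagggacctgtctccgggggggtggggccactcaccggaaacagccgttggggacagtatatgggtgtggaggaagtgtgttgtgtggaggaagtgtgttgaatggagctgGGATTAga
Zfp280c: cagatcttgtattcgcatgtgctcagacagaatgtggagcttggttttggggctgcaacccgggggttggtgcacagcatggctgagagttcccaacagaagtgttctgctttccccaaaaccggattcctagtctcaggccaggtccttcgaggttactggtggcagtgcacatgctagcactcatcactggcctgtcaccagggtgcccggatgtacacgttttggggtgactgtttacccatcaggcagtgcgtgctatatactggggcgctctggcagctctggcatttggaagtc
Zfp955b: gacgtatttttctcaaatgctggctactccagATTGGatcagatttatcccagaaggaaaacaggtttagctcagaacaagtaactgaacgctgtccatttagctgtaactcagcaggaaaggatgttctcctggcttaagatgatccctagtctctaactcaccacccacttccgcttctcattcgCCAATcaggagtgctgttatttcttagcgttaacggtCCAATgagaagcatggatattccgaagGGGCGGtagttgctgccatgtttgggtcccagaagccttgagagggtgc
Zfp979: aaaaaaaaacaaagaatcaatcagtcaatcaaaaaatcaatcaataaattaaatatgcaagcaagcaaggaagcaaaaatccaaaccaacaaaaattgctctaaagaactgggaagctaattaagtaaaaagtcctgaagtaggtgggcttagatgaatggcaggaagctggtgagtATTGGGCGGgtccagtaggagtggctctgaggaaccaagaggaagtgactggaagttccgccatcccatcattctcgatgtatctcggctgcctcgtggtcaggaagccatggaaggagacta
CCAAT stood in 53.0% of the 230 member windows and in 37.4% of all 32851 windows. GGGCGG stood in 45.7% and 35.7%, and TATAAA in 5.65% and 13.6%. The other letters were less frequent in both sets: GGATTA in 8.70% and 7.06%, CACGTG in 6.52% and 7.15%, AAGATGGC in 4.78% and 2.75%, and ACTACAA in 4.35% and 3.24%. Member windows held a median of 13 CG pairs and all windows a median of 7, at a median G+C content of 54.3% and 52.7%. A match is a run of letters only, windows of 1 gene can overlap, and the shown Zfp280c window held none of these letters. All windows include those of genes that did not reach 10 CPM here, while the members were chosen at that level. Whether the differences go with expression was not tested.

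Some libraries stood apart from their groups. Totals were 3933604 to 13052327 counts in WT oocytes, 4585916 to 10637866 in KO oocytes, 3788348 to 10303580 in WT 2-cell samples and 2704050 to 15007301 in KO 2-cell samples. Nlrp14 lay at 225 to 3307 CPM in WT and 0.643 to 73.2 CPM in KO oocytes, and at 106 to 477 CPM in WT and 29.4 to 86.4 CPM in KO 2-cell samples, without overlap; which of its exons are deleted is not given in the sources used here. All 7 oocyte markers reached 1 CPM in each oocyte pool. Of 8 cumulus and granulosa markers 1 reached 1 CPM in WT and 4 in KO oocytes, with summed levels per library of 44.2 to 115 CPM and 48.0 to 204 CPM and Amh, Foxl2 and Fshr at 0 in KO, and their part in the oocyte results was not tested. The oocytes fell into library sets that the labels do not name. Spike-in RNA exceeded 0.01% of counts in 10 WT and 7 KO oocytes and in all 2-cell libraries. In 3 WT and 10 KO oocytes it was at or under 0.01% with the rRNA precursor Rn45s under 1% (low-rRNA libraries), and 1 WT and 2 KO oocytes fell in neither set. Single cells of no named animal make each group 1 sample, so no test was run between these groups. Intervals beside ratios and shares are exact 95% intervals that cover counting error only, and PCR reads without molecular identifiers are not independent molecules.

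Together the 214 genes took 1.20% of pooled counts in WT oocytes, 0.948% in KO oocytes, 1.58% in WT 2-cell samples and 1.21% in KO 2-cell samples. Their summed level per library was 8046 to 15411 CPM (median 13442) in WT oocytes and 7036 to 12155 CPM (median 8900) in KO oocytes. It was 12187 to 18151 CPM (median 16863) in WT and 10985 to 15228 CPM (median 12493) in KO 2-cell samples. The genotypes overlapped at each stage. The sum also moved with the library set: spike-in oocytes held 12981 to 15411 CPM in WT and 10932 to 12155 CPM in KO, without overlap, while low-rRNA oocytes held 8046 to 9178 CPM and 7036 to 8900 CPM, with overlap. Replicate 8 of the WT 2-cell samples held 12187 CPM, within the KO range and apart from the other 7 WT samples.

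**Figure D1:**
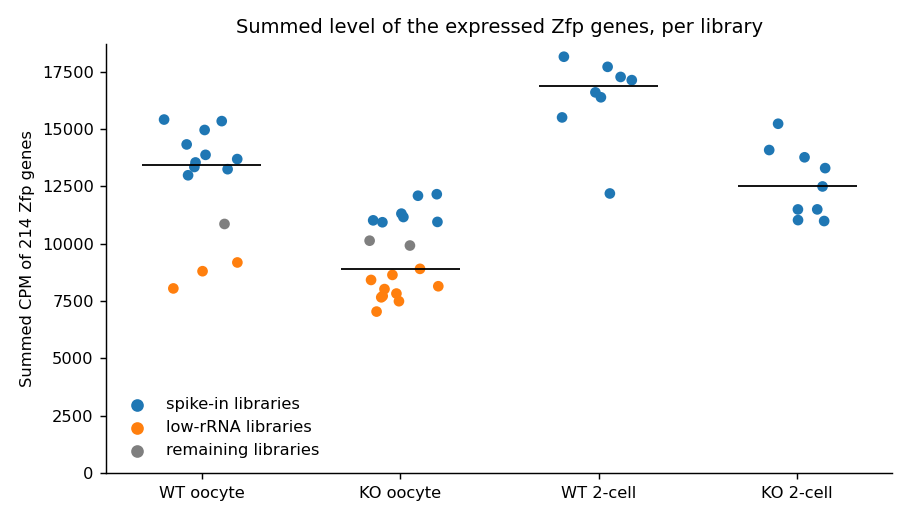
Summed CPM of the 214 Zfp genes (y axis) in each oocyte and 2-cell library (points, by library set; the line is the group median). Low-rRNA oocytes lie at 7036 to 9178 CPM, below the spike-in oocytes at 10932 to 15411 CPM, and 1 WT 2-cell library at 12187 CPM lies below the other 7.

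Most of the genes were present at modest levels. At 10 CPM or more were 130 of the 214 in WT oocytes, 116 in KO oocytes, 186 in WT 2-cell samples and 142 in KO 2-cell samples, and 94 reached that level in all 4 pools. The pooled level of the median gene was 13.3, 12.1, 27.2 and 15.9 CPM in the same order. Of the 214 genes 48 reached the limit in WT 2-cell samples alone. These were lower elsewhere by the choice itself, and their ratios support nothing.

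A few genes carried much of the total. Zfp706, a small zinc finger protein linked to embryonic stem cell self-renewal, lay at 700 to 1393 CPM (median 1166) in WT oocytes and 547 to 1342 CPM (median 699) in KO oocytes. In 2-cell samples it lay at 1239 to 3030 CPM (median 2004) in WT and 1279 to 2326 CPM (median 1908) in KO. Zfp979, a KRAB gene in a rodent-specific cluster on chromosome 4, lay at 311 to 2094 CPM (median 1397) in WT oocytes, 360 to 1116 CPM (median 578) in KO oocytes, 1059 to 2929 CPM (median 1776) in WT and 900 to 2722 CPM (median 1391) in KO 2-cell samples. With Zfp655 these were the 3 most abundant in each pool, and they held 26.2% of the members' counts in WT oocytes and 36.2% in KO 2-cell samples. Next came Zfp68 (469 CPM pooled), Zfp735 (430 CPM) and Zfp616 (297 CPM) in WT oocytes, and Zfp980 (391 CPM), Zfp280b (387 CPM) and Zfp68 (363 CPM) in WT 2-cell samples. Zfp979 to Zfp982, Zfp985, Zfp600 and Zfp534 are close relatives in 1 cluster, as are Zfp955a and Zfp955b elsewhere, so reads may have been divided among copies and their single values are uncertain.

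From the WT oocyte to the WT 2-cell stage many Zfp genes were higher and fewer were lower. Of 202 genes that reached 10 CPM in at least 1 of the pools 94 were at least 2-fold higher, or 46.5%, where 41.1% of all 8532 genes were. Lower by that factor were 29, or 14.4%, where 14.3% of all genes were. Both shares lay near the background. The median log2 ratio was 0.83 for the Zfp genes and 0.64 for all genes. TMM scaling, estimated over all 50 libraries, moved the median of all genes by -0.69 and left 61 Zfp genes higher and 42 lower, at a median of 0.04, which puts the higher genes at 59.2% of those 2-fold apart, against 76.4%. With the spike-in oocytes as the only reference 86 were higher (42.6%) and 29 lower (14.4%), at a median of 0.73, where 42.1% and 12.8% of all genes were, at a median of 0.69.

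Of these genes 25 lay under 1 CPM in pooled WT oocytes and at 10 CPM or more in WT 2-cell samples. Zfp54 lay at 0 to 3.07 CPM in WT oocytes and 38.8 to 390 CPM (median 169) in WT 2-cell samples, with a log2 ratio of 8.28 (7.91 to 8.68). Zfp948, of the same gene cluster, lay at 0 to 2.53 CPM and 43.4 to 401 CPM (median 162), at 7.34 (7.07 to 7.63). Zfp317 lay at 0 to 1.17 CPM and 19.1 to 254 CPM (median 123), at 8.85 (8.30 to 9.47). In all 3 every 2-cell library exceeded every oocyte.

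Zfp871 had no count in the 14 WT oocytes and 1315 counts in WT 2-cell samples, at least 1114-fold higher against a floor of 3 counts over the oocyte pool. Its 2-cell libraries lay at 0.0971 to 108 CPM (median 27.1), the lowest being replicate 8. Zfp599 had 1 count among the WT oocytes and 10.7 to 85 CPM (median 41.9) in 2-cell samples, at 12.11 (9.63 to 17.41). Zfp622, a factor of large ribosomal subunit maturation, lay at 0 to 0.614 CPM and 10.6 to 96.2 CPM (median 43.8), at 9.89 (8.67 to 11.52). Among genes at 20 CPM or more in the 2-cell pool the ratios of Zfp280c (8.54), Zfp239 (8.25), Zfp566 (7.74) and Zfp707 (7.51) followed, each without overlap. Zfp871, Zfp599, Zfp280c and Zfp239 reached 10 CPM in WT 2-cell samples alone, so their ratios support nothing. Promoter windows were found for 21 of the 25 genes, and GGATTA stood in 7 of their 29 windows, or 24.1%. Overlapping windows of Zfp54 make up 3 of the 7, so that 4 of the 21 genes held the letters, where 8.14% of all genes did.

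The 29 genes lower at the 2-cell stage lay at 10.7 to 430 CPM (median 72.6) in pooled WT oocytes. Zfp955b lay at 223 to 420 CPM (median 316) in WT oocytes and 8.59 to 50 CPM (median 18.2) in WT 2-cell samples, at -3.65 (-3.74 to -3.55). Zfp735 lay at 277 to 758 CPM (median 412) and 17.8 to 79.3 CPM (median 39.8), at -3.14 (-3.20 to -3.08). Zfp60 lay at 74.5 to 296 CPM (median 117) and 5.78 to 27.6 CPM (median 14.4), at -3.49 (-3.61 to -3.38). The stages did not overlap in these 3. Zfp750, known from epidermal differentiation, lay at 136 to 356 CPM (median 225) and 4.82 to 67.7 CPM (median 16.1), at -2.85 (-2.93 to -2.77). Zfp952 (-2.80), Zfp449 (-2.76), Zfp955a (-2.76), Zfp873 (-2.71), Zfp442 (-2.47) and Zfp616 (-1.91) followed, of which Zfp952 overlapped between stages.

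**Figure D2:**
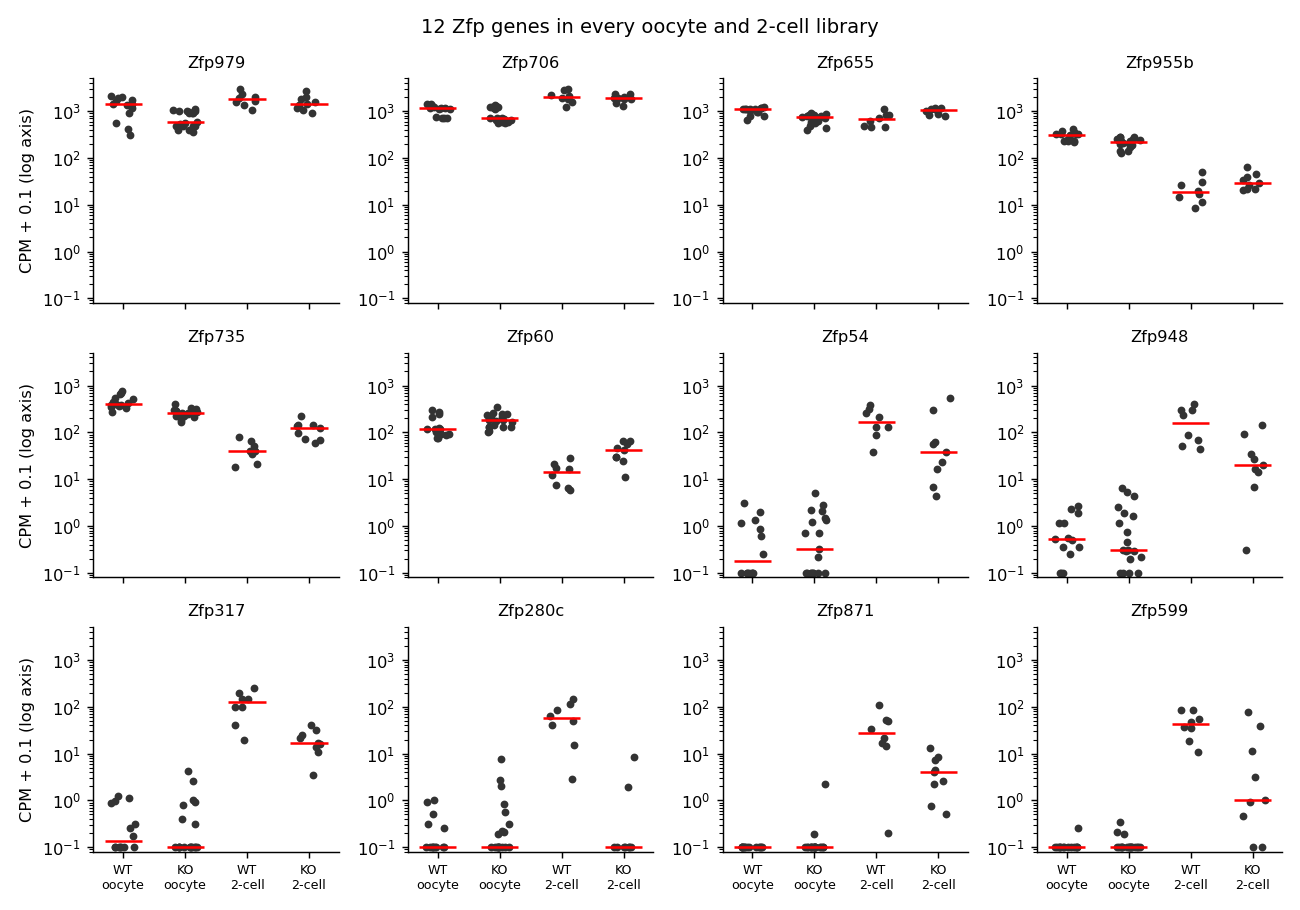
Level of 12 Zfp genes in every oocyte and 2-cell library (points, CPM plus 0.1 on a log axis; the red line is the group median). The panels show genes that are near 0 in oocytes and spread among 2-cell libraries beside genes that are abundant in oocytes and lower in 2-cell libraries.

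In 2-cell samples of KO mothers Zfp genes were lower more often than higher. Of 197 genes 79 were at least 2-fold lower than in WT, or 40.1%, where 31.6% of all 8416 genes were. Higher were 7, or 3.55%, where 5.96% of all genes were. The median log2 ratio was -0.73 for the Zfp genes and -0.35 for all genes. TMM scaling moved the median of all genes by 0.34 and gave 54 Zfp genes lower and 14 higher, at a median of -0.32, which puts the higher genes at 20.6% of those 2-fold apart, against 8.14%. Markers of stage moved with this result: the 7 oocyte markers summed to 3452 to 9474 CPM (median 5282) in WT and 5084 to 16638 CPM (median 9252) in KO libraries, and 5 markers of the 2-cell stage to 668 to 1416 CPM (median 1277) and 150 to 2029 CPM (median 844), none at 0 in the pools. Their part in the result was not tested. Among Zbtb genes, another zinc finger family, 9 of 24 were lower and 1 was higher, at a median of -0.45. Among Zscan and Zkscan genes 4 of 16 were lower and 4 higher, at a median of 0.38.

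The single samples varied, and no Zfp gene separated the genotypes fully. None of the 197 had every KO library below every WT library, where 1.37% of all genes did, and none had every KO library above, where 0.333% did. Replicate 8 of the WT samples lay among the KO libraries for many of these genes. Over the 25 genes scarce in oocytes it held 326 CPM in sum, where the other WT samples held 626 to 1931 CPM and the KO samples 54.2 to 1084 CPM. Without it, an alternative added after its values were seen, 92 of the 197 genes were lower and 15 higher, at a median of -0.83. Of all 8648 genes 3187 were lower and 981 higher, at a median of -0.46. Then 21 Zfp genes lay lower without overlap, where 13.4% of all genes did. Among them were Zfp280c, Zfp281, Zfp367, Zfp800, Zfp871, Zfp148 and Zfp568. Higher without overlap was 1, Zfp385a, where 3.53% of all genes were. Zfp280c, Zfp800 and Zfp871 reached 10 CPM in WT 2-cell samples alone, and Zfp385a in KO 2-cell samples alone, so their directions follow from the choice.

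Zfp280c showed the lowest ratio. It lay at 2.81 to 150 CPM (median 56.9) in WT 2-cell samples, the lowest being replicate 8. Of the 9 KO samples 7 had no count and the others held 1.85 and 8.4 CPM. Its log2 ratio was -6.82 (-7.37 to -6.32). Zfp800 lay at 7.28 to 117 CPM (median 56.1) in WT and 0 to 21.1 CPM (median 2.7) in KO, at -3.94 (-4.15 to -3.75). Zfp367 lay at 36.8 to 330 CPM (median 172) in WT and 1.69 to 62.5 CPM (median 8.08) in KO, at -3.26 (-3.36 to -3.17). In these 3 genes the genotypes overlapped through WT replicate 8 alone. Zfp280c and Zfp800 reached 10 CPM in WT 2-cell samples alone, so their lower values in KO follow from the choice and support nothing.

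Zfp281, a regulator of pluripotency, lay at 40.5 to 359 CPM (median 260) in WT and 13 to 75.6 CPM (median 44.7) in KO, at -2.31 (-2.37 to -2.25). Zfp871 lay at 0.4 to 13.3 CPM (median 3.98) in KO, at -3.21 (-3.43 to -3.00), and Zfp317 at 3.41 to 41.4 CPM (median 16.8), at -2.63 (-2.73 to -2.54). Zfp715 (-3.70), Zfp1 (-3.29), Zfp983 (-3.00), Zfp707 (-2.55) and Zfp985 (-2.53) were also among the lowest. For each of these 8 genes the WT median exceeded all 9 KO samples. Of these Zfp871, Zfp715, Zfp1 and Zfp983 reached 10 CPM in WT 2-cell samples alone, so their lower values follow from the choice. Zfp54 was spread more widely, at 4.33 to 545 CPM (median 37.8) in KO, with replicates 3 and 8 at 545 and 303 CPM above the WT median, and its ratio was -1.23 (-1.28 to -1.17).

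The 7 genes higher in KO included several that were lower at the WT 2-cell stage than in oocytes. Zfp750 lay at 41 to 164 CPM (median 94) in KO 2-cell samples, at 1.79 (1.70 to 1.87) against WT. Zfp735 lay at 59.1 to 226 CPM (median 122), at 1.27 (1.20 to 1.34), and Zfp60 at 11.2 to 65.2 CPM (median 40.9), at 1.5 (1.38 to 1.63). All 9 KO samples exceeded the WT median for Zfp750 and Zfp735, and 8 did for Zfp60, while the ranges overlapped. The others were Zfp692 (1.90), Zfp92 (1.24), Zfp385a (1.24) and the meiosis gene Zfp541 (1.31), named after its value was seen. Zfp385a reached 10 CPM in KO 2-cell samples alone, so its higher value follows from the choice. Zfp692, Zfp92 and Zfp541 reached 10 CPM in the KO but not in the WT 2-cell pool, so their direction follows from that limit.

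The stage ratio and the genotype ratio both use the WT 2-cell libraries, so the values are only set side by side. Of the 25 genes scarce in oocytes 17 reached 10 CPM in WT 2-cell samples alone, so that lower values in KO follow from the choice and no count of them is read. The other 8 lay at -2.63 to -0.61 in KO against WT. Of all 823 genes in the same class 88.9% were at least 2-fold lower in KO. Of 29 genes lower at the 2-cell stage 20 could be compared, of which 5 were higher in KO and none lower, at a median of 0.60. Among the 5, Zfp692 and Zfp92 reached 10 CPM in the KO but not in the WT 2-cell pool, so their direction follows from that limit. Of 79 genes under 2-fold apart between stages 76 could be compared, of which 10 were lower and none higher, at a median of -0.28. Without WT replicate 8 this last class had 19 lower and 5 higher of 77, at a median of -0.37, and the class before it 1 lower and 6 higher, at a median of 0.71. TMM scaling adds 0.29 to every ratio of this comparison, which turns the sign of the -0.28. For the classes lower and under 2-fold apart between stages the share over all genes was not computed. Their counts are thus not read as particular to Zfp genes.

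From KO oocyte to KO 2-cell sample 45 of 156 genes were at least 2-fold higher, or 28.8%, where 23.6% of all 7179 genes were. Lower were 22, or 14.1%, where 17.4% of all genes were. The median was 0.38, against 0.23 for all genes. TMM scaling gave 26 higher and 30 lower, at a median of 0.03, which puts the higher genes at 46.4% of those 2-fold apart, against 67.2%. When KO oocytes of the spike-in set were the only reference, 21.2% of the Zfp genes and 19.5% of all genes were higher, at medians of 0.14 and 0.15. Zfp386 lay at 0 to 3.9 CPM in KO oocytes and 12.8 to 166 CPM (median 39.9) in KO 2-cell samples, without overlap, at 6.21 (5.91 to 6.52). Zfp54 (6.38) and Zfp948 (4.48) were also high. Zfp618 was lowest, at -4.09, and at -1.53 against spike-in oocytes alone. It reached 10 CPM in KO oocytes alone, so its lower value follows from the choice. Zfp952 (-2.95) and Zfp955b (-2.53) were lower without overlap.

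In oocytes few Zfp genes were 2-fold apart between genotypes. Of 139 genes 14 were at least 2-fold lower in KO, or 10.1%, where 2.39% of all 6325 genes were. Higher was 1, Zfp618, or 0.719%, where 2.04% of all genes were. The median was -0.32, against 0.02 for all genes. Zfp618 reached 10 CPM in KO oocytes alone, so its higher value follows from the choice. Of the 14 lower genes Zfp563, Zfp938 and Zfp940 reached 10 CPM in WT oocytes alone, so their lower values follow from it too. None of the 139 had libraries without overlap, where 0.0316% of all genes were lower in that way and 0.0% higher. Within spike-in libraries 16 of 138 were lower (11.6%) and 6 higher (4.35%), at a median of -0.33, where 3.69% and 9.41% of all genes were, at a median of 0.07. Within low-rRNA libraries 9 of 121 were lower (7.44%) and none higher, at a median of -0.09, where 2.03% and 1.98% of all genes were, at a median of -0.02. Leaving out single oocytes gave 1 to 5 genes higher.

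Zfp770 lay at 0.843 to 88.6 CPM (median 38.7) in WT and 0 to 17.5 CPM (median 5.55) in KO oocytes, at -2.14 (-2.24 to -2.03). The WT median exceeded all 19 KO oocytes. The ratio was -2.11 in the spike-in set and 0.27 in the low-rRNA set. Zfp281 was at -1.76 over all libraries, -1.80 in the spike-in set and -0.13 in the low-rRNA set. The ratio thus differed between library sets for both genes. Zfp938 was lower in both sets, at -0.90 and -1.44, as were Zfp709, at -1.18 and -0.69, and Zfp677, at -1.19 and -1.11. Of these Zfp938 reached 10 CPM in WT oocytes alone, so its lower values follow from the choice. The abundant Zfp979 was at -0.70 over all libraries, -0.66 in the spike-in set and 0.14 in the low-rRNA set.

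**Figure D3:**
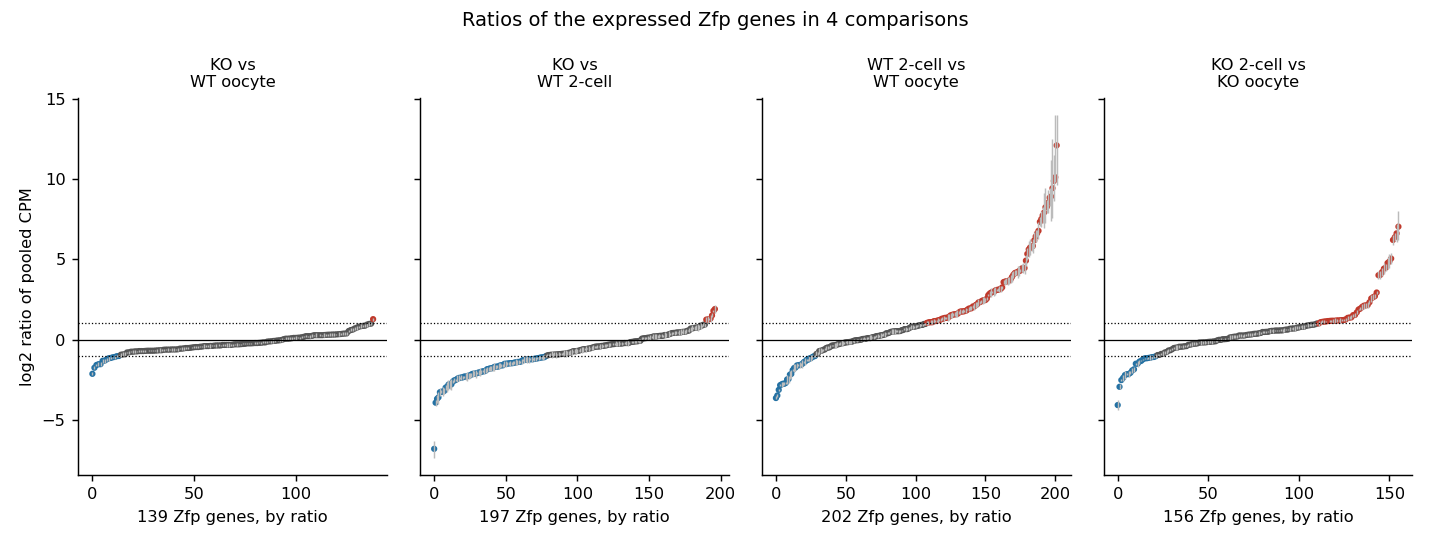
Log2 ratio of pooled CPM (y axis) of the Zfp genes that reached 10 CPM in at least 1 of the pools, ordered by ratio in each of 4 comparisons. Grey lines are 95% counting intervals and dotted lines mark 2-fold. Genes lower in KO are 14 of 139 in oocytes and 79 of 197 in 2-cell samples, where 2.39% and 31.6% of all genes were lower. Some of them reached 10 CPM in 1 pool alone, so their direction follows from the choice.

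By role, 21 of the genes are transcription and chromatin factors without a KRAB box. From WT oocyte to WT 2-cell sample 13 were at least 2-fold higher (61.9%, where 41.1% of all genes and 46.5% of the Zfp genes were). None was lower, and the median was 1.14. In KO against WT 2-cell samples 10 were lower (47.6%, where 31.6% of all genes and 40.1% of the Zfp genes were) and none higher, at a median of -0.93. Zfp143, an activator at many promoters, lay at 24.1 to 175 CPM (median 111) in WT and 8.74 to 82.1 CPM (median 28.9) in KO, at -1.61 (-1.69 to -1.53). Zfp263 (-1.62), Zfp644 (-1.51), Zfp292 (-1.43), the Chd4 regulator Zfp410 (-1.39), the GC-box binder Zfp148 (-1.23), the corepressor partner Zfp217 (-1.12) and Zfp609 (-1.11) were lower beside Zfp280c and Zfp281. Of these 10 genes Zfp280c, Zfp263, Zfp292 and Zfp609 reached 10 CPM in WT 2-cell samples alone. Their higher values at the WT 2-cell stage and their lower values in KO follow from the choice. The shares of 61.9% and 47.6% are therefore not read. Zfp280b, a relative of Zfp280c, was instead abundant in both, at 299 to 463 CPM (median 380) in WT and 404 to 623 CPM (median 475) in KO.

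Of 8 factors of RNA handling and ribosomes 2 were lower in KO 2-cell samples, Zfp622 (-2.02) and the binder of double-stranded RNA Zfp346 (-2.80). Higher was 1, Zfp385a. Of all genes 31.6% were lower, a larger share than in this list, and 5.96% were higher. Zfp346 reached 10 CPM in WT 2-cell samples alone and Zfp385a in KO 2-cell samples alone, so their directions follow from the choice. Zfp598, the ubiquitin ligase that senses collided ribosomes, was at 0.56, and Zfp638 at 0.36. The spindle factor Zfp207 (0.23), the ubiquitin ligase Zfp91 (0.07) and the SUMO ligase Zfp451 (0.47) were under 2-fold apart.

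Of 10 KRAB factors with known targets 4 were higher from WT oocyte to WT 2-cell sample and 1 lower, at a median of 0.65. Of all genes 41.1% were higher and 14.3% lower, at a median of 0.64, so the list lay near the background. Zfp809, which silences proviruses, lay at 0 to 17.1 CPM (median 5.38) in WT oocytes and 21 to 118 CPM (median 67.7) in WT 2-cell samples, at 3.58 (3.46 to 3.71). In KO 2-cell samples it lay at 4.2 to 221 CPM (median 47.7), at -0.60 against WT. Zfp568, the repressor of a placental Igf2 transcript, was at 1.35 between stages and -1.69 in KO, and Zfp30 at 9.44 and -1.23. Zfp30 reached 10 CPM in WT 2-cell samples alone, so its ratios follow from the choice. Zfp92 was at -1.62 and 1.24. Of 26 genes of the KRAB corepressor machinery, none a Zfp gene, 22 could be compared in 2-cell samples, of which 2 were lower in KO and 1 higher. These are 9.09% and 4.55%, where 31.6% and 5.96% of all genes were.

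Neighbouring genes did not all share 1 pattern. In the RefSeq gene order 5 runs of Zfp genes, with at most 4 other protein-coding genes between neighbours, held 5 or more of the 214 genes each and 52 in all. In the run from Zfp677 to Zfp13, which holds Zfp54 and Zfp948, 8 of 16 genes were higher at the WT 2-cell stage and none lower, at a median of 1.01 and from -0.17 to 8.28. In KO 2-cell samples 9 of them were lower and none higher, at a median of -1.18. Of all genes 41.1% were higher between the WT stages and 31.6% lower in KO 2-cell samples. In the run from Zfp990 to Zfp933, which holds Zfp979, 4 of 11 were higher and 1 lower between stages, and 4 of 10 compared were lower in KO, at a median of -0.90. Zfp53, Zfp983 and Zfp40 of the run before it and Zfp981 of this run reached 10 CPM in WT 2-cell samples alone. Their lower values follow from the choice. In the run from Zfp930 to Zfp866 none of the 5 genes compared was 2-fold apart between KO and WT 2-cell samples. The genes in runs and the other 162 had medians of -0.73 and -0.76 in that comparison.

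Parental alleles were counted separately in 2-cell samples. Whether reads of both alleles were mapped equally well was not tested. A paternal transcript can come only from the embryo or the sperm, while maternal counts also hold transcripts laid down in the egg. Of the 214 genes 192 had 50 or more allele counts in WT, and their median paternal share was 28.3% (quartiles 12.3 and 45.3%), against 21.6% over 10869 genes. In KO 192 genes had a median of 8.88% (quartiles 1.43 and 31.8%), against 3.34% over 10154 genes. Of 183 genes counted in both 147 had a lower share in KO and 34 a higher one, with a median difference of -8.31 percentage points. The same count was not made over all genes, whose median share was also lower in KO. It is thus not read as particular to Zfp genes. Per library the share over all members was 9.07 to 33.1% (median 27.0%) in WT and 4.29 to 17.9% (median 7.55%) in KO, with overlap, and WT replicate 8 held the 9.07%.

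The most abundant genes differed in their paternal share. Zfp706 had 1.14% (0.979 to 1.32%) paternal of 15625 allele counts in WT and 0.2% (0.147 to 0.265%) of 24050 in KO. Zfp655 had 8.8% (8.41 to 9.2%) in WT and 1.36% (1.25 to 1.48%) in KO. Zfp280b had 26.8% (25.9 to 27.7%) and 3.21% (2.94 to 3.5%). In these 3 the share was lower in KO, and single libraries of Zfp280b lay at 2.37 to 48.9% in WT and 0.101 to 11.7% in KO, with overlap. Zfp979 had 34.1% (33.4 to 34.7%) and 29.9% (29.4 to 30.5%), with single libraries at 26.4 to 46.4% and 24.3 to 53.4%. It belongs to a cluster of close copies, where the assignment to alleles is uncertain. Zfp951 had 25% and 2.02%, Zfp68 4.84% and 0.745%, Zfp942 1.62% and 0.0425%, Zfp148 6.01% and 1.31%, and Zfp518a 22.3% and 8.13%.

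Most genes scarce in oocytes carried counts of both alleles in 2-cell samples. Over the 25 genes the median paternal share was 54.9% in WT, and over the 20 with enough counts it was 48.5% in KO. Among the 5 with fewer, Zfp9, named after its values were seen, had 0 paternal of 31 allele counts in KO. Their summed counts were 53.3% and 54.0% paternal, with single libraries at 41.0 to 63.5% in WT and 28.7 to 66.0% in KO. Zfp317 had 59.2% (57.6 to 60.7%) in WT and 77.8% (75.1 to 80.4%) in KO, Zfp54 61.6% and 48.1%, Zfp948 41.2% and 67.8%, and Zfp983 90.6% and 66.8%. Zfp871 had 91.2% (87.2 to 94.3%) in WT and 42 paternal of 43 allele counts in KO. Zfp280c, on the X chromosome, had 16.1% (14.3 to 18%) in WT, with single libraries at 0 to 100%, and 21 paternal of 22 allele counts in KO. Among genes present in oocytes, Zfp600 had 74% and 92.4%, and Zfp534, named after its value was seen, 86.8% and 90.6%. Both belong to the cluster of close copies, where the assignment to alleles is uncertain.

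Among the genes lower at the 2-cell stage maternal counts prevailed, as they did over all genes. The median paternal share was 18.2% over 24 of them in WT and 3.41% over 27 in KO, near the 21.6% and 3.34% of all genes. Zfp genes under 2-fold apart between stages had 13.2% in WT and 4.17% in KO. Zfp735 had 3 paternal of 1518 allele counts in WT and 4 of 5519 in KO. Scaled to the library totals, maternal counts had a median log2 ratio of -0.32 between KO and WT over 193 Zfp genes, with 56 lower (29%) and 15 higher, where 25.4% of all genes were lower. Paternal counts had a median of -2.18 over 148 Zfp genes, with 124 lower (83.8%) and 1 higher, where 91.3% of all genes were lower. Over all genes these medians were -0.10 and -2.77.

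**Figure D4:**
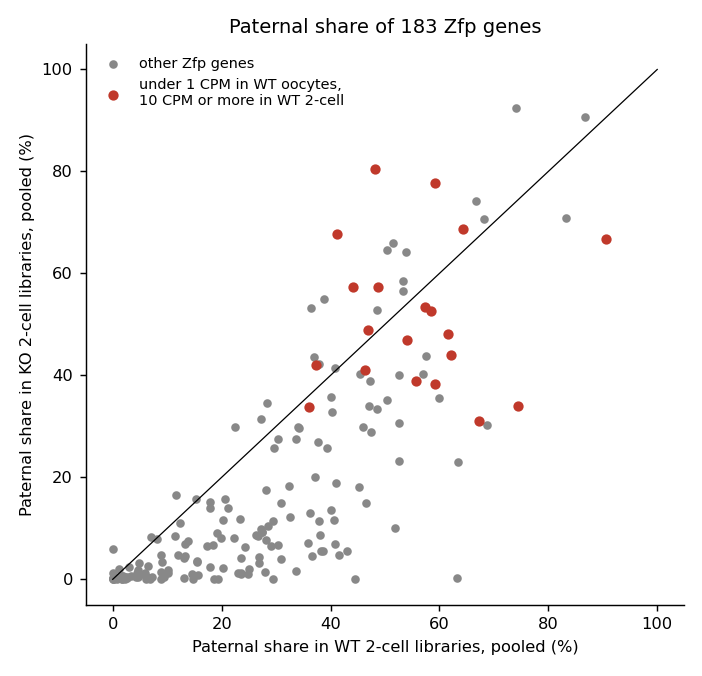
Paternal share of allele counts in KO (y axis, percent) against WT (x axis, percent) pooled 2-cell libraries for 183 Zfp genes with 50 or more allele counts in each; the line marks equal shares. Of the points 147 lie below the line, and the 20 genes scarce in oocytes (red) lie at 31.0% or more on the KO axis. No such count was made over all genes.

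In epiblast the cultured and E6.5 libraries differed broadly. Of 192 Zfp genes tested by edgeR's quasi-likelihood test (2 against 2 samples) 8 were higher in IVC, where 12% of all 11565 genes were, and 38 were lower, where 23.5% of all genes were. The median log2 fold change was -0.46 for the Zfp genes and -0.85 for all genes. The rRNA precursor Rn45s took 0.101 and 0.121% of counts in IVC and 26.2 and 23.3% in E6.5, and 8380 and 8990 genes were detected in IVC and 13101 and 13698 in E6.5. The 4 epiblast markers summed to 1099 and 1011 CPM in IVC and 4156 and 4906 CPM in E6.5, and the 5 visceral endoderm markers to 384 and 480 CPM and to 86.5 and 102 CPM. The 4 extraembryonic ectoderm markers summed to 66.8 and 20.1 CPM and to 174 and 171 CPM. The part of these differences in the result was not tested. In such bulk samples fewer cells of a type and less RNA per cell cannot be told apart, and as the labels name no separate litters the p-values measure the spread between these samples.

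Zfp706 was higher in IVC, at 681 and 653 CPM against 184 and 149 CPM in E6.5, with a log2 fold change of 2.27 (SE 0.21) and an edgeR adjusted p of 0.0114. Zfp53 lay at 61.7 and 55.3 CPM against 2.79 and 3.74 CPM, at 4.44 (SE 0.68, edgeR adjusted p = 0.0316). Zfp948, of the same cluster, lay at 65.9 and 111 CPM against 7.02 and 6.82 CPM, at 3.94 (SE 0.58, edgeR adjusted p = 0.0286). Zfp932 (2.97), a KRAB factor that binds retroviral elements, Zfp277 (2.27), Zfp263 (2.19), Zfp367 (1.43) and Zfp207 (1.00) were also higher. None of the 8 overlapped between groups.

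Of the 38 lower genes 32 had no count in either IVC library, as had 1921 of the 2717 lower genes in all. Zfp592, a partner of the histone reader Zmynd8, lay at 85.1 and 65.6 CPM in E6.5 and had no count in IVC (edgeR adjusted p = 0.026). It was 495-fold lower against a floor of 3 counts over both libraries. Against that floor Zfp142, at 96.5 and 54 CPM, was 467-fold lower, and Zfp334, at 54.5 and 53.1 CPM, 368-fold lower. Zfp407, Zfp574, Zfp850 and Zfp346 were likewise without a count, 262-fold, 251-fold, 198-fold and 182-fold lower against it. Zfp106, an RNA-binding protein, was detected throughout, at 119 and 95.2 CPM in IVC against 642 and 604 CPM in E6.5, at -2.27 (SE 0.22, edgeR adjusted p = 0.0125). Zfp423 lay at 0.578 and 1.17 CPM against 27.1 and 43.8 CPM, at -5.05, and Zfp599 had 0 and 1 counts in IVC against 21.1 and 22.1 CPM. Of all 214 genes 51 had no count in either IVC library and 7 had none in either E6.5 library. A further 55 had no count in 1 IVC library only, such as Zfp101 (0 and 67.5 CPM) and Zfp951 (0 and 51.5 CPM). The folds against the floor thus cover counting error only and set no lower limit on the difference.

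Some genes differed widely between the IVC libraries. Zfp655 lay at 127 and 0.0976 CPM in IVC and 70.3 and 56.8 CPM in E6.5, and Zfp143 at 0.385 and 42.3 CPM and 32.9 and 31 CPM. Zfp979 lay at 24 and 105 CPM and 17.5 and 29.9 CPM (edgeR adjusted p = 0.249). By role, 2 of 21 transcription and chromatin factors were higher (Zfp263 and Zfp706) and 2 lower (Zfp423 and Zfp592), 2 of 8 RNA factors were lower (Zfp106 and Zfp346), and 1 of 6 KRAB factors with known targets was higher (Zfp932). Of 26 corepressor genes 5 were higher and 7 lower, Trim28 among the latter. The counts rested on single libraries: without E6.5 replicate 1 or E6.5 replicate 2 there was 1 Zfp gene higher and 1 lower. Without IVC replicate 1 there were 36 higher and 76 lower, and without IVC replicate 2 there were 40 and 92, where the lone sample is assumed to vary like the other pair.

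**Figure D5:**
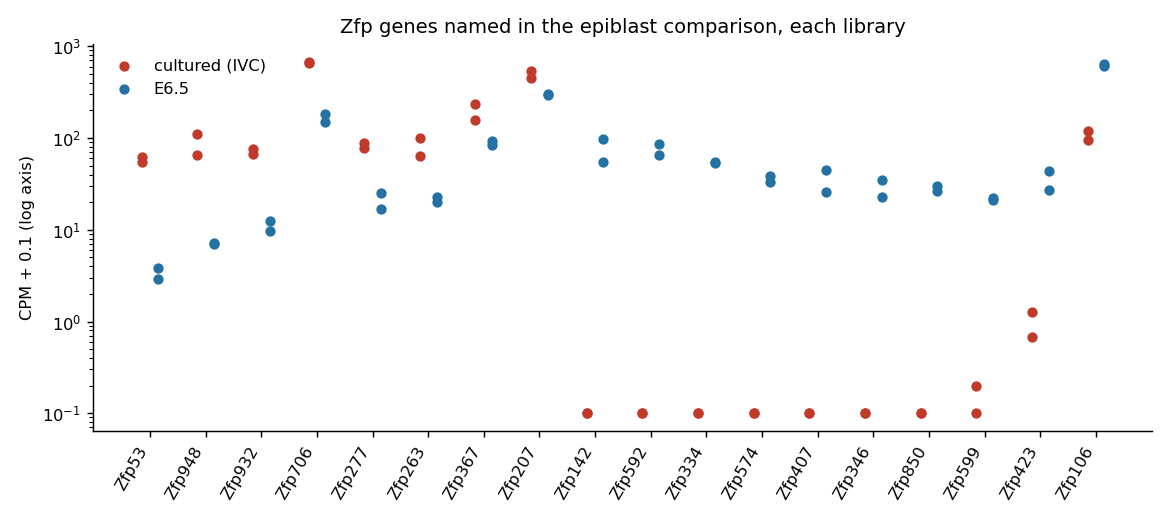
Level of the 18 Zfp genes named in the epiblast comparison in each library (CPM plus 0.1 on a log axis, coloured by group). The 8 higher genes lie above E6.5 in both cultured libraries, and 7 of the 10 lower genes have no count in either.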

How the data were processed

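RNA was measured in single oocytes and 2-cell samples and in bulk epiblast. The authors deposited counts per gene: a total, a maternal and a paternal table for oocytes and 2-cell samples, and a table per epiblast sample. Per the submitters' processing notes STAR 2.6.0a, HTSeq 0.10.0, featureCounts 2.0.1, cutadapt 1.15, Trim Galore 0.6.6 and SAMtools 0.1.18 were used in the series, with build mm9; which made each table is not given in the sources used here. Groups follow the labels, and 54 of 209 samples had columns; the other 155 were not analysed here. Members and lists were chosen with earlier results of these data known.

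Spike-in rows (92) were left out, counts were summed per group and scaled to CPM, and genes reaching 10 CPM in at least 1 of the pools entered a comparison, 2-fold or more counting as higher or lower. The split into low-rRNA and spike-in libraries was made with the values in view. In oocytes the maternal table equalled the total in all 33 columns, so alleles were read in 2-cell samples alone, at 50 or more allele counts per gene; 3 of 3557 member values had more allele counts than total counts. Epiblast tables were joined on 24446 symbols, leaving out 4 rows that share a name, and tested two-sided with edgeR 4.0.16 (R 4.3.3), with Benjamini-Hochberg adjustment over all genes tested and a threshold of 0.05; DESeq2 1.42.0 was an alternative. Scripts used Python 3.11.15, numpy 2.4.6, pandas 2.3.3, scipy 1.17.1 and matplotlib 3.10.9, and were tested on simulated data. Epiblast totals were 10377163 and 10241401 counts (IVC) and 11826853 and 24047088 counts (E6.5).

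Genes were named by rule: per comparison the 10 highest and 10 lowest ratios among members at 20 CPM or more, with a count in at least 50% of libraries and 75% of libraries beyond the other group's median; the 10 most abundant per group; the 10 strongest non-overlapping epiblast calls per direction; members of the role lists; the 10 with most allele counts; and 3 on each side of the limit. Alternatives were other scalings and filters, library sets, and leaving out single libraries.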

Additional observations from a re-analysis of the deposited data

Results flagged for a closer look

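In 42 groups of libraries checked, 7 held 1 library whose gap to the nearest other was large for the group's range, where chance gives about 1 in 20. The summed level of the 214 genes was 12187 CPM in WT 2-cell replicate 8, and 15500 to 18200 CPM in the other WT samples. In the same library Zfp235 lay at 34.75 CPM, against 2.31 to 13.3 CPM in the others. In WT 2-cell replicate 1 Zfp957 lay at 127 CPM, against 41.8 to 80.2 CPM. Among KO 2-cell samples Zfp800 lay at 21.1 CPM in replicate 3, against 0 to 7.98 CPM, and Zfp983 at 18.9 CPM in that replicate, against 2.81 to 7.64 CPM. Zfp1 lay at 12.54 CPM in KO replicate 8, against 0 to 5.6 CPM, and Zfp280c at 8.4 CPM in KO replicate 1, against 0 to 1.85 CPM.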

How the results depend on the processing

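TMM scaling gave, for KO against WT 2-cell samples, 14 genes higher and a median of -0.32, for the WT stages 61 higher and a median of 0.04, and for the KO stages 26 higher and a median of 0.03. A limit of 20 CPM gave 8 genes lower between oocytes, 4 higher between 2-cell samples and 22 higher between the KO stages. With no filter 9 were higher and 26 lower between oocytes, and 74 higher between the KO stages at a median of 0.57. The mean of library CPM gave 5 higher between oocytes, spike-in libraries alone 6, and low-rRNA libraries alone 0 higher and 9 lower. Within low-rRNA libraries Zfp770 was at 0.27 and Zfp597 at 0.02, turning their direction. Spike-in libraries alone gave a median of 0.14 between the KO stages. The causes were not tested.

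Leaving out single libraries gave 1 to 5 genes higher between oocytes, and 6 to 15 higher between 2-cell samples, the 15 without WT replicate 8. Without that replicate the count of genes lower with no overlap was 21, against 0. In epiblast the range was 1 to 40 higher and 1 to 92 lower; no filter gave 3 and 7, and the DESeq2 Wald test 15 higher. A fit with the replicate block gave 1 higher and 1 lower; same-numbered samples did not deviate together (correlation 0.00606), so the numbers were not taken to pair them. Single cells without named animals allow no test between genotypes, and 2 against 2 epiblast samples limit the calls there.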
